A study of Mus musculus with 41 samples.

Results

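Fibroblast growth factors are secreted ligands that bind receptor tyrosine kinases at the cell surface together with heparan sulfate chains. Receptor binding recruits docking proteins, activates the Ras-MAPK cascade and induces feedback inhibitors of the Sprouty, Spred and Dusp families and Ets factors such as Etv4. In the mammary gland, Fgf7 and Fgf10 come from stroma and act on the epithelial form of Fgfr2, while Fgf3 and Fgf4 are classical activated loci of virus-induced mouse mammary tumors. The 10 genes described here are the receptors Fgfr1, Fgfr2, Fgfr3 and Fgfr4 and the ligands Fgf1, Fgf2, Fgf3, Fgf7, Fgf10 and Fgf18. They were found by symbol among the 47480 genes of the table, and all 10 had a row.

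RNA was sequenced from 41 mouse mammary tumors in the Balb/c background, with 1 library per tumor. The 28 PLK2null tumors lacked both Plk2 and p53 (Plk2-/-; p53-/-), and the 13 p53null tumors lacked p53 only (p53-/-), so that loss of p53 was shared by all. Tumors had grown untreated in the mammary fat pads of syngeneic hosts after transplantation, and each tumor carries its genotype and its label number as a name. The labels do not give the age of the hosts or say which tumors came from the same donor or were passages of the same tumor. The p-values below, by limma and by permutation, therefore treat each tumor as independent and measure only the spread between these tumors. Several sets of tumors resembled each other closely, and where such tumors share an origin the p-values are too small.

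The values are upper-quartile normalized Salmon estimated counts on a linear scale, on which the 75th percentile of the nonzero genes of each tumor is 1000. A read was worth 0.388 to 0.817 in these units, which implied 31910250 to 53244728 fragments in the PLK2null tumors and 29409609 to 70868124 in the p53null tumors. The floor of 3 reads lay between 1.16 and 2.45 and covers counting error only. Plk2 itself was at 298 ± 149 (SD, n = 28) in PLK2null and 3436 ± 2104 (SD, n = 13) in p53null tumors, with the library labelled p53null-7435 at 186, inside the PLK2null range. The summed level of 6 epithelial markers ran from 45.7 in PLK2null-743 to 119162 among PLK2null tumors and from 33742 to 295213 among p53null tumors. The study names CL743 and T11 as claudin-low. PLK2null-732 and PLK2null-733 are not named there and are set beside PLK2null-743 here because they were its closest tumors (r = 0.94 and 0.95). All p53null titles, and no PLK2null title, carry a numbered series name, so a library batch and the genotype cannot be told apart. In bulk tumors, fewer cells of a type and less RNA per cell cannot be told apart either.

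Positions are from RefSeq on GRCm38.p6, the mm10 build of the files. Fgfr1 lies on chromosome 8 from 25518759 to 25575718 on the plus strand. Fgfr2 and Fgf3 lie far apart on chromosome 7, Fgfr4 and Fgf10 on chromosome 13, Fgfr3 on chromosome 5, Fgf2 on 3, Fgf7 on 2 and Fgf18 on 11. Promoter windows of 300 bases, from 250 before to 50 after the RefSeq start, were found for 8 of the 10 genes. The windows of the receptors whose levels varied most between tumors, Fgfr2 and Fgfr4, and of the neighbours Fgf3 and Fgf4, which were high together in a single tumor, are shown 5′ to 3′ on the gene's own strand. Capitals mark matches to any of 5 motifs, searched on both strands. The GC box was searched as GGGCGG. The TATA box was searched as TATAAA. The E-box was searched as CACGTG. The AP-1 site was searched as TGACTCA. The ETS site was searched as AGGAAGT.
Fgfr2, chr7:130266759-130267058, minus strand: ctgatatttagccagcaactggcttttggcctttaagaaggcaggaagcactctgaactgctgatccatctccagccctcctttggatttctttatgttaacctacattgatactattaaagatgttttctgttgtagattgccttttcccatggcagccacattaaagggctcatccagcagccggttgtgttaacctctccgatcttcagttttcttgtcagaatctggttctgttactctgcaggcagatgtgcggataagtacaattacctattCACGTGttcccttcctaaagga
Fgfr4, chr13:55152568-55152867, plus strand: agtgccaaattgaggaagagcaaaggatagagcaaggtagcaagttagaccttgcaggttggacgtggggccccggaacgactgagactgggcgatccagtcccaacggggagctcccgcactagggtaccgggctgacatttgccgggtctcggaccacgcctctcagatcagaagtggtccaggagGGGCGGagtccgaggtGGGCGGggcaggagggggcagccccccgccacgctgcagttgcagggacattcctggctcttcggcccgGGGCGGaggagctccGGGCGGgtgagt
Fgf3, chr7:144838362-144838661, plus strand: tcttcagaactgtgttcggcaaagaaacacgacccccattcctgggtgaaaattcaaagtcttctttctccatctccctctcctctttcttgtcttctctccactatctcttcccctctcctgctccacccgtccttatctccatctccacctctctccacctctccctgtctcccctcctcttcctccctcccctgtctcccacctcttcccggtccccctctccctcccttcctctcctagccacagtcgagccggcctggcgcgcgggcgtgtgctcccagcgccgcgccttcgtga
Fgf4, chr7:144861136-144861435, plus strand: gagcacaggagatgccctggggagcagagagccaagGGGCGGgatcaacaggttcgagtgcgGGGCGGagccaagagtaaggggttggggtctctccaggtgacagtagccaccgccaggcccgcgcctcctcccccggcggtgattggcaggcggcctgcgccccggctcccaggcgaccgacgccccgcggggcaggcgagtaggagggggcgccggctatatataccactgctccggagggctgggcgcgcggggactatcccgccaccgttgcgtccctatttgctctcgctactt
The Fgfr4 window held 4 GC boxes and was 65.3% G and C. The Fgfr2 window held no GC box, 1 E-box and 43.7% G and C, below the median of 52.7% over all windows. The Fgf4 window held 2 GC boxes and the Fgf3 window none of the letters searched, and no motif overlapped another in these windows. Of 32851 windows in the table, 35.7% held a GC box, 13.6% a TATA box, 7.15% an E-box, 5.20% an AP-1 site and 9.35% an ETS site. A match is a description of the letters and not a bound site.

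Fgfr1 was the most abundant of the 10 genes. Divided by exon length, its median over the 41 tumors was 1472 per kb, followed by Fgf1 at 83.1, Fgf2 at 50.3, Fgfr2 at 44.4, Fgfr3 at 38.6 and Fgf7 at 19.2 per kb. Fgf18 at 2.85, Fgfr4 at 2.36, Fgf10 at 0.938 and Fgf3 at 0.188 per kb were the lowest. Genes next to each other in this order overlapped in their ranges over tumors. Within a tumor, however, Fgfr1 was the highest of the 4 receptors per kb in 41 of 41. It made up 70.9 to 99.3% of the summed receptor level per kb in PLK2null tumors and 36.7 to 99.5% in p53null tumors, with the lowest share in p53null-10151.

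**Figure D1:**
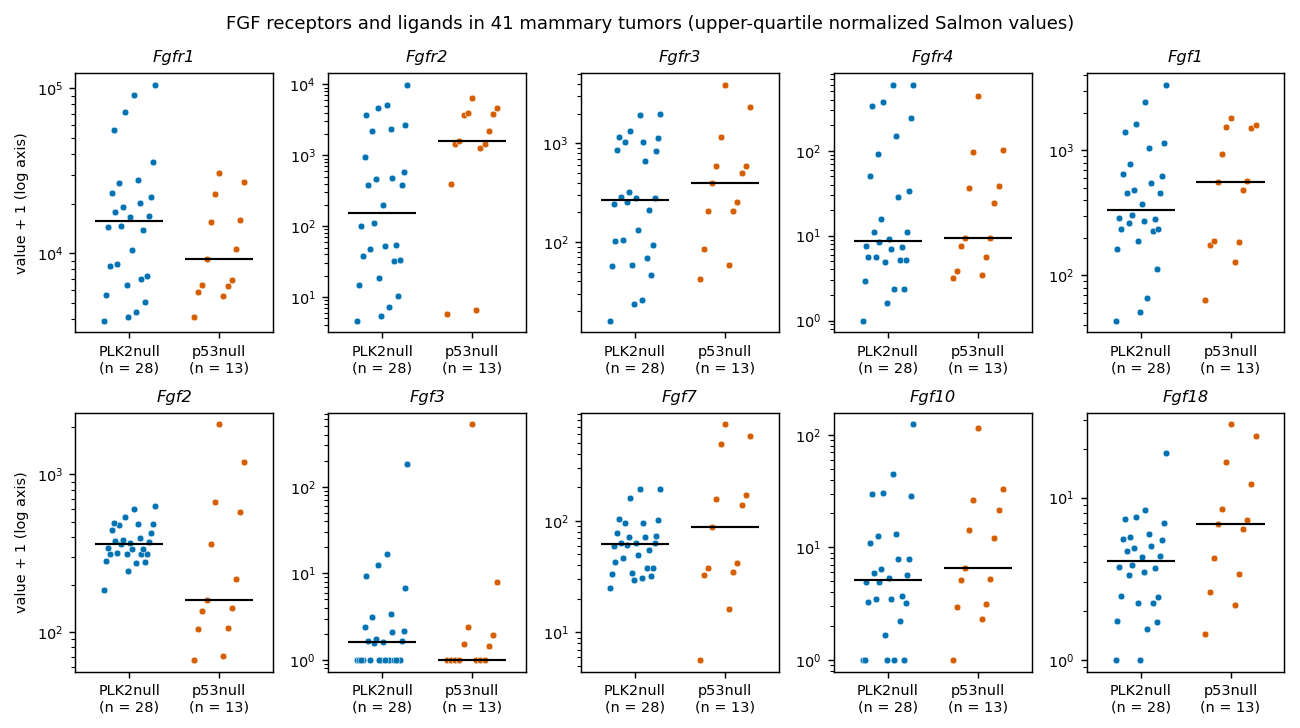
Values of the 10 genes in 28 PLK2null and 13 p53null tumors, as upper-quartile normalized value + 1 on a log axis. Each point is a tumor and each bar a group median. The genotypes overlap for every gene, and Fgf2 spans 184 to 627 in PLK2null and 65.7 to 2078 in p53null tumors.

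None of these genes differed between the genotypes after adjustment over all genes. In limma on log2(value + 1), 0 of the 9 genes that passed the filter (mean of at least 10) had a Benjamini-Hochberg adjusted p under 0.05, and 1 of 9 had an unadjusted p under 0.05. Over all 17208 genes tested, 39.5% were called at the adjusted and 47.4% at the unadjusted threshold. The median log2 fold change (PLK2null minus p53null) was -0.29 over the 9 genes and 0.10 over all genes, with 2 of the 9 above 0. Fgf3 passed the filter only through p53null-2153L, and Fgf18, with a mean of 5.18, was under it.

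Several of these genes varied widely between tumors. For Fgfr2 the SD of log2(value + 1) was 3.32 within PLK2null and 3.36 within p53null tumors, beside a fitted genotype difference of -2.31. The SD of log2(value + 1) over the 41 tumors was 3.47 for Fgfr2, 2.53 for Fgfr4 and 2.01 for Fgfr3, against a median of 0.76 over all genes tested. Of the genes tested, 0.354% had a larger SD than Fgfr2 and 3.42% a larger SD than Fgfr4. Fgfr1 (1.24) and Fgf2 (0.97) varied least among the 9.

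**Figure D2:**
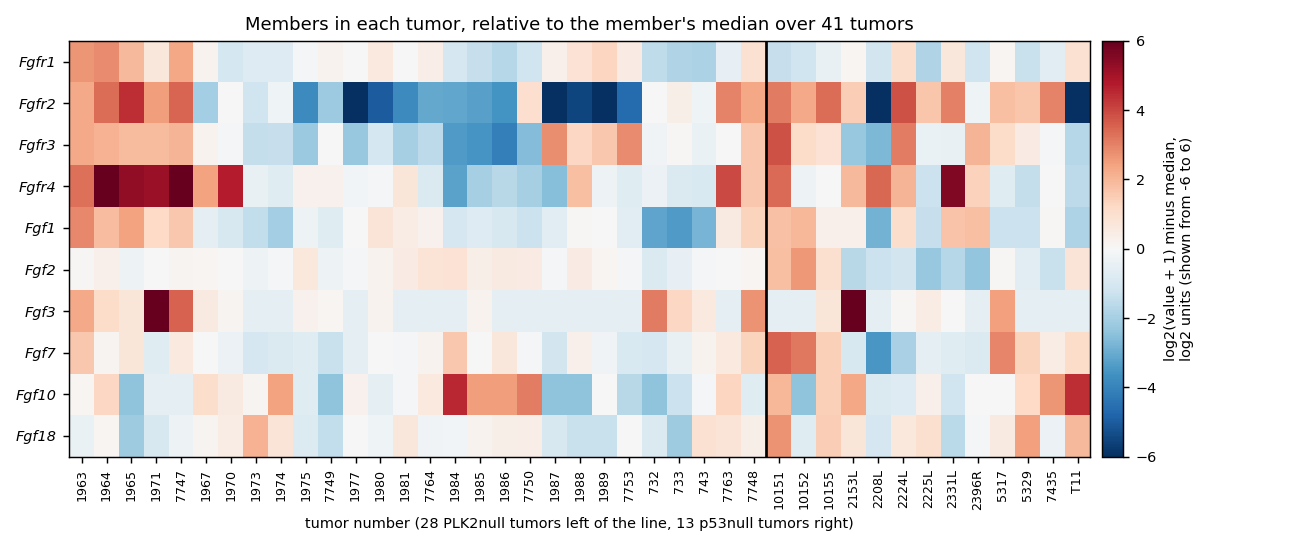
Each of the 10 genes (rows) in each of 41 tumors (columns), as log2(value + 1) minus the gene's median over the 41 tumors, in log2 units shown from -6 to 6. PLK2null tumors stand left of the line, ordered so that tumors linked through their closest tumor stand together, and p53null tumors right of it. PLK2null-7747, PLK2null-1963, PLK2null-1964 and PLK2null-1965 are above the median for all 4 receptors, as are PLK2null-1971, PLK2null-7748 and p53null-2224L. Fgf3 stands out in p53null-2153L and PLK2null-1971.

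Fgfr1, the main receptor here, was at 3915, 15637 and 104683 (lowest, median and highest) in PLK2null tumors and at 4141, 9187 and 30485 in p53null tumors. The highest values were 104683 in PLK2null-1964, 91275 in PLK2null-1963, 72048 in PLK2null-7747 and 55682 in PLK2null-1965. These lay 3.83 to 7.20 times above the median of 14539, and the next tumor, PLK2null-1989, was at 35795. PLK2null-732, PLK2null-733 and PLK2null-743 were among the 5 lowest, at 5109, 4107 and 3915, while p53null-T11 was at 27218, the second highest of its genotype. The genotype difference was 0.55 (SE 0.40, adjusted p = 0.287, limma), with a 95% interval of -0.26 to 1.37.

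The 4 tumors with the highest Fgfr1 resembled each other in the rest of their expression. Over the most variable genes, the 10 described here left out, the closest tumor to PLK2null-1963, PLK2null-1964 and PLK2null-1965 was PLK2null-7747, at r = 0.69, 0.89 and 0.84. The labels do not say whether they descend from the same tumor. Genes around Fgfr1 were also high in them. Of 20 other protein-coding genes with a mean of at least 10 within 1 Mb, 17 were at least 1 log2 unit above their own median in PLK2null-1964, 17 in PLK2null-1963, 16 in PLK2null-7747 and 13 in PLK2null-1965. The median neighbour was 2.18, 1.89, 2.04 and 1.14 log2 units above its median in these tumors.

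For 6 of the 20 neighbours, Letm2, Ddhd2, Star, Ash2l, Hook3 and Rnf170, all 4 tumors were above each of the other 37. Ash2l, a subunit of histone methyltransferase complexes, was at 8762 to 13525 in the 4 tumors and at most 5652 elsewhere. Star, which carries cholesterol into mitochondria, was at 585 to 1162 and at most 185 elsewhere. Ddhd2, a lipase, was at 4824 to 8601 and at most 3856 elsewhere. The neighbours were also high in p53null-2331L, by a median of 1.42 log2 units, where Fgfr1 was 0.66 above its median. In p53null-2224L, with the highest Fgfr1 of its genotype, they were 0.94 above and Fgfr1 1.07 above. In PLK2null-1989, by contrast, Fgfr1 was 1.30 above its median and the median neighbour was at -0.01.

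**Figure D3:**
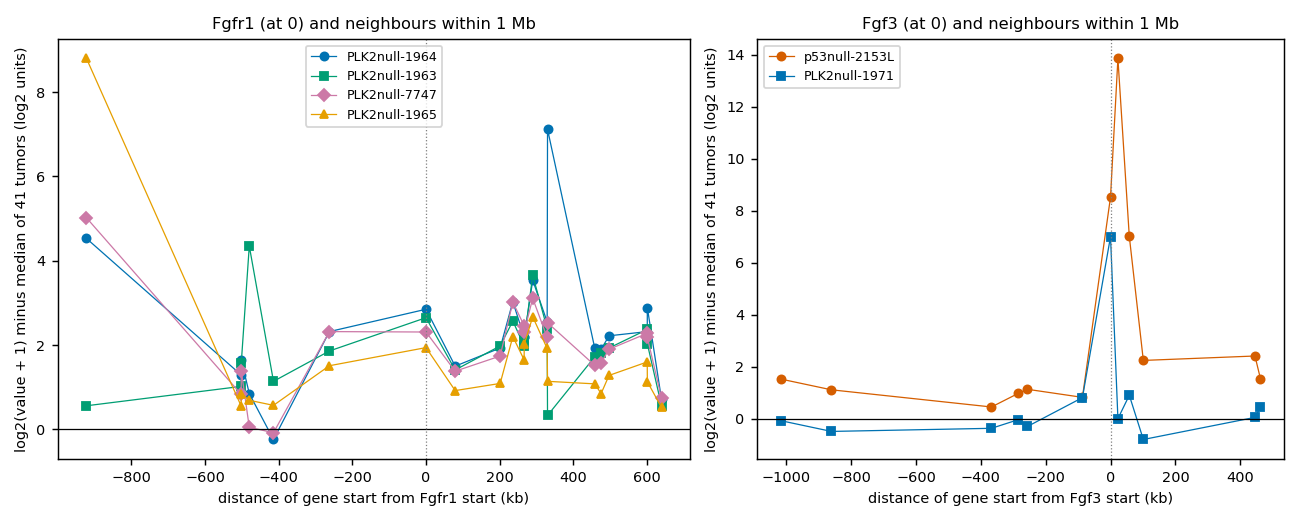
Genes within 1 Mb of Fgfr1 (left) in its 4 highest tumors and of Fgf3 (right) in its 2 highest tumors. The y axis is log2(value + 1) minus the gene's median over 41 tumors and the x axis the distance between gene starts in kb, with lines joining genes of the same tumor. Around Fgfr1 most neighbours are raised in all 4 tumors, while around Fgf3 the neighbours are raised in p53null-2153L and near 0 in PLK2null-1971.

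By the fixed rule, the genes whose pattern over the 41 tumors was most like that of Fgfr1 were Camkv (Pearson r = 0.79), a kinase-like protein, and the neighbours Star (0.76) and Rnf170 (0.75). These and the correlations below are descriptions over tumors that share libraries, normalization and, in part, overall similarity.

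Fgfr2, the receptor for Fgf7 and Fgf10 in epithelium, was at 3.67, 154 and 9807 in PLK2null tumors and at 4.79, 1612 and 6461 in p53null tumors. Of the 41 tumors, 11 were at least 5 times above the median of 459 and 11 were at 0.1 of it or less. Of the latter, 9 were PLK2null tumors, and p53null-2208L (5.53) and p53null-T11 (4.79) were the others. The fitted difference was -2.31 (SE 1.09, unadjusted p = 0.0399, adjusted p = 0.0878, limma), and the permutation test of this gene alone gave p = 0.0451 (100000 resamples, 2-sided, unadjusted). On leaving out each tumor in turn, Fgfr2 was called without p53null-2208L (-2.91, adjusted p = 0.0268, limma) and without p53null-T11 (-2.92, adjusted p = 0.0246). These were the lowest p53null tumors for Fgfr2. It was not called without any other tumor, with the largest adjusted p, 0.144, without p53null-2224L. Without PLK2null-732, PLK2null-733, PLK2null-743 and p53null-T11 together the difference was -3.09 (adjusted p = 0.0231), and with PLK2null tumors of 77xx numbers alone -0.96 (adjusted p = 0.718).

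Fgfr2 was low in whole sets of similar tumors. PLK2null-7753, PLK2null-1987, PLK2null-1988 and PLK2null-1989 were at 17.6, 4.47, 9.22 and 3.67. PLK2null-7764, PLK2null-1977, PLK2null-1980 and PLK2null-1981 were at 54.1, 6.37, 13.6 and 31.3. In another set, PLK2null-1984, PLK2null-1985 and PLK2null-1986 were at 51.2, 46.4 and 37.2, but the similar PLK2null-7750 was at 937. PLK2null-732, PLK2null-733 and PLK2null-743 were at 472, 579 and 378, against 4.79 in p53null-T11.

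The genes most like Fgfr2 were the glucose transporters Slc2a12 (r = 0.88) and Slc2a4 (0.86) and Edaradd (0.86), an adaptor of ectodysplasin receptor signaling. Krt5, a basal keratin chosen for display after its values were seen, had r = 0.75 with Fgfr2 over 41 tumors, 0.66 within PLK2null and 0.88 within p53null tumors. Krt14, another basal keratin, did not follow Fgfr2 in the same way, with r = 0.21 over 41 tumors, -0.17 within PLK2null and 0.81 within p53null tumors. Of 7 basal and myoepithelial markers, 3 were lower in PLK2null tumors (Krt5, Krt14 and Acta2), beside 15.3% of all genes tested, and none of the markers was higher. Their summed level ran from 1896 to 112915 in PLK2null and from 3337 to 161286 in p53null tumors, and none of the 7 was at 0 throughout. Their part in the Fgfr2 difference was not tested.

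In p53null-2224L, where Fgfr2 was at 6461, 6 of 7 neighbours within 1 Mb were at least 1 log2 unit above their medians, and Wdr11, Nsmce4a and Tacc2 had their highest value of the 41 tumors there. In PLK2null-1965, with the highest Fgfr2 (9807), 1 of 7 was, namely Dmbt1.

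Fgfr3 was at 15 (lowest) and 264 (median) in PLK2null tumors, whose highest value was 7.19 times the median of all tumors, 276, and at 41.3, 395 and 3909 in p53null tumors, with a difference of -0.58 (SE 0.66, adjusted p = 0.515, limma). The highest tumors were p53null-10151 (3909) and p53null-2224L (2322), followed by the similar tumors PLK2null-7753 (7.19 times the median) and PLK2null-1987 (1940). These last 2 were among the lowest for Fgfr2. PLK2null-1984, PLK2null-1985 and PLK2null-1986 were the lowest for Fgfr3, at 25.1, 22.8 and 15. Among the genes most like it were the homeobox gene Irx4 (r = 0.77) and Ajuba (0.75), a LIM-domain protein. The r with Krt5 was 0.75, 0.81 within PLK2null and 0.67 within p53null tumors.

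Fgfr4 was close to the floor in most tumors, with a median of 7.74 in PLK2null and 8.41 in p53null tumors, and 5 PLK2null tumors at or under 3 reads. In 11 tumors it was at least 5 times above the median of 8.37, led by PLK2null-7747 (594), PLK2null-1964 (592), p53null-2331L (446), PLK2null-1965 (374) and PLK2null-1971 (338). The genotypes differed by -0.07 (SE 0.84, adjusted p = 0.957, limma), with a 95% interval of -1.77 to 1.63 that leaves room for changes in either direction. The gene most like Fgfr4 was a ligand, Fgf8, at r = 0.82 over 41 tumors, 0.88 within PLK2null and 0.62 within p53null tumors. Fgf8 was at 1071 in PLK2null-1964, 868 in PLK2null-7747, 563 in PLK2null-1965 and 504 in p53null-2331L, against a median of 1.5. It was also at 543 in PLK2null-1967, where Fgfr4 was at 49.2. Conversely, Fgf8 was at 8.67 in PLK2null-1970 and 0.390 in p53null-2208L, where Fgfr4 was at 242 and 101. Alg11 (0.77), a mannosyltransferase, and Dgki (0.77), a diacylglycerol kinase, followed.

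**Figure D4:**
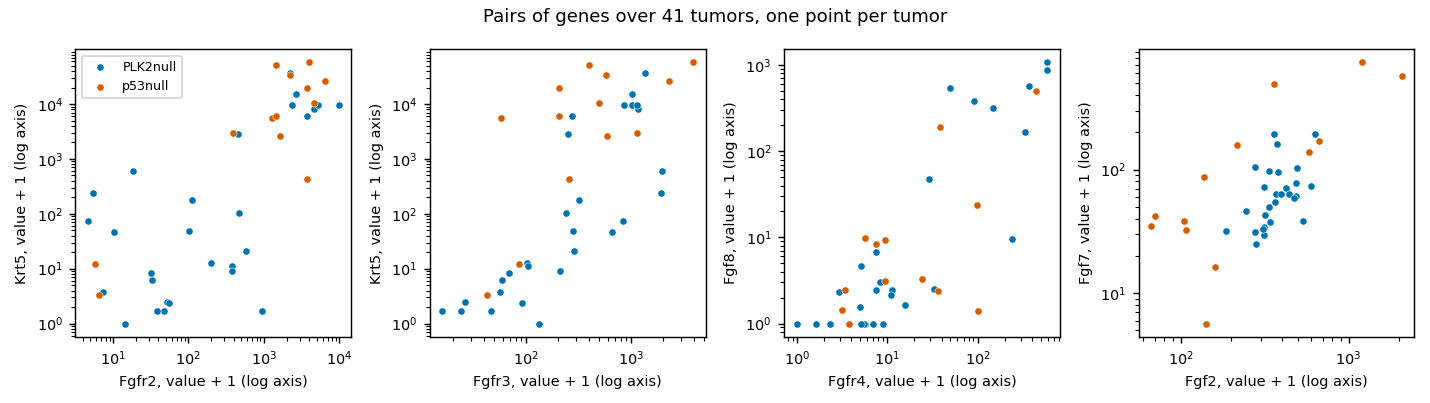
Fgfr2 against Krt5, Fgfr3 against Krt5, Fgfr4 against Fgf8 and Fgf2 against Fgf7, as value + 1 on log axes, with a point for each of 28 PLK2null and 13 p53null tumors. Fgfr4 and Fgf8 had r = 0.82 over 41 tumors, but p53null-2208L was at 101 for Fgfr4 and at 0.390 for Fgf8. The p53null tumors spread further than the PLK2null tumors for Fgf2 and Fgf7.

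Fgf1, which binds all 4 receptors, was at 42.5, 335 and 3335 in PLK2null tumors and at 63.1, 555 and 1822 in p53null tumors. The highest were PLK2null-1963 (3335) and PLK2null-1965 (2449), both among the 4 with the highest Fgfr1. The lowest were PLK2null-733 (42.5) and PLK2null-732 (50.1). Fgf1 and Fgfr1 had r = 0.87 within PLK2null tumors and 0.04 within p53null tumors, a difference that was not tested. The genes most like Fgf1 were the semaphorin Sema3c (r = 0.84), the smooth muscle gene Cnn1 (0.84) and Pgbd1 (0.83), and Acta2 had r = 0.74. The genotypes differed by -0.29 (SE 0.52, adjusted p = 0.683, limma).

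Fgf2 lay within a narrow range in PLK2null tumors, at 184, 363 and 627, and a wide range in p53null tumors, at 65.7, 159 and 2078. Of the 13 p53null tumors, 7 were below every PLK2null tumor and 3 (p53null-10152 at 2078, p53null-10151 at 1198 and p53null-10155 at 669) above every PLK2null tumor. The SD of log2(value + 1) was 0.40 in PLK2null and 1.59 in p53null tumors. This difference in spread was not tested. The share of all genes with such a spread or so little overlap is not given here, so neither is read as particular to Fgf2. The mean difference was 0.58 (SE 0.31, adjusted p = 0.137, limma). Without p53null-10152 it was 0.84 (adjusted p = 0.0137) and without p53null-10151 0.77 (adjusted p = 0.0370). Spg20 (r = 0.71), Aebp1 (0.67), a matrix protein, and Fbxo24 (0.67) were most like Fgf2 over 41 tumors. For Fbxo24 this rested on the p53null tumors, with r = 0.86 within them and -0.55 within PLK2null tumors.

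Fgf7, a stromal ligand of Fgfr2, was at 24.1, 61.2 and 193 in PLK2null tumors and at 4.68 (lowest) and 86.5 (median) in p53null tumors, where the highest was 11.8 times the median of all tumors, 62.3. That tumor, p53null-10151, with p53null-10152 (573) and p53null-5317 (488), stood above every PLK2null tumor, and p53null-2208L (4.68) and p53null-2224L (15.4) below every one. The SD of log2(value + 1) was 0.80 and 2.10 in PLK2null and p53null tumors, which was not tested or set beside all genes either. The difference was -0.47 (SE 0.44, adjusted p = 0.419, limma). Fgf2 and Fgf7 had r = 0.63 over 41 tumors, the highest among the pairs of the 10 genes, with 0.48 within PLK2null and 0.78 within p53null tumors. Ppp1r3e (r = 0.73), Klk11 (0.73) and Megf9 (0.72) were most like Fgf7.

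Fgf10, the other stromal ligand of Fgfr2, was at or under 3 reads in 9 PLK2null and 2 p53null tumors. It was highest in PLK2null-1984 (123), p53null-T11 (115) and PLK2null-7750 (43.8), and the similar PLK2null-1986 and PLK2null-1985 were at 29.3 and 28.8. These 4 PLK2null tumors were also the lowest PLK2null tumors for Fgfr3. Medians were 4.14 in PLK2null and 5.62 in p53null tumors, and the difference was -0.63 (SE 0.60, adjusted p = 0.428, limma). Pcolce2 (r = 0.77), an enhancer of procollagen processing, AW551984 (0.77) and Trim9 (0.75) were most like it. Of 8 fibroblast markers, 0 were called between the genotypes, with summed levels of 29184 to 326317 in PLK2null and 27373 to 279063 in p53null tumors. Of 6 adipocyte markers tested, 3 were lower in PLK2null tumors. Over all genes tested, 15.3% were called lower and 24.3% higher. The part of either cell type in Fgf7 and Fgf10 was not tested.

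Fgf18, a ligand of Fgfr3, was the only gene too low to be tested across the table, and was at or under 3 reads in 9 PLK2null and 3 p53null tumors. It was at 0, 3.08 and 17.8 in PLK2null tumors and at 0.436, 5.85 and 27.3 in p53null tumors. The difference in mean log2(value + 1) was -0.81 (permutation test, 100000 resamples, 2-sided, unadjusted p = 0.0327). With no filter on low values it was not called (adjusted p = 0.0905, limma). The highest values were p53null-10151 (27.3) and p53null-5329 (22.9).

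Fgf3 was at or under 3 reads in 21 of 28 PLK2null and 11 of 13 p53null tumors, and at 0 in 20 of the 41. It was at 526 in p53null-2153L, at 183 in PLK2null-1971 and at most 15.6 in every other tumor. The fitted difference was -0.05 (SE 0.66, adjusted p = 0.958, limma). Without p53null-2153L Fgf3 fell under the filter, so that its test is not read as a result. In p53null-2153L the adjoining Fgf4 was at 14786, against 6.11 or less in each of the other 40 tumors, and Fgf15 was at 1894, against 259 or less. Ccnd1, the cyclin of G1 phase, was at 74191 (median 15686) and Tpcn2 at 2202 (median 414), both the highest of the 41. All 11 neighbours within 1 Mb were above their medians and 8 of them by at least 1 log2 unit. Skeletal muscle markers also had their highest summed level in this tumor, 38591, against a p53null median of 200, and their part was not tested.

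PLK2null-1971, with the second highest Fgf3, had a different neighbourhood. Fgf4 was at 0, Ccnd1 at 9029 was below its median, and 0 of 11 neighbours were 1 log2 unit or more above their medians. The fixed rule gave Urb1 (r = 0.72), a ribosome biogenesis factor, Nsun5 (0.65) and Ppp2r2c (0.64) as most like Fgf3.

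Among the other FGF ligands, 5 of 12 passed the filter. Fgf4 passed it through p53null-2153L alone, so that its test is not read as a result. All 28 PLK2null tumors and 8 of 13 p53null tumors were at or under 3 reads of Fgf4, and no fold is given. Of the other 4 ligands tested, Fgf15 was called lower, at 8.32 (median) in PLK2null and 20.4 in p53null tumors, a difference of -1.81 (SE 0.73, adjusted p = 0.0458, limma). The call of Fgf15 was lost on leaving out any of 22 tumors, and without p53null-2153L the difference was -1.33 (adjusted p = 0.127). Fgf23, chosen after its values were seen, was at 443 in p53null-5317 and at most 11.3 in any other tumor. Of 3 intracellular homologous factors tested, Fgf11 was higher, at 177 against 75.6 (medians), a difference of 1.04 (SE 0.27, adjusted p = 0.00200, limma). Over all genes tested, 24.3% were called higher and 15.3% lower.

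Of 15 coreceptors and extracellular partners tested, 4 fell and 0 rose, beside 15.3% of all genes tested called lower and 24.3% called higher. Their median was -0.48, against 0.10 over all genes. Sdc4, a heparan sulfate proteoglycan of the cell surface, had medians of 5150 in PLK2null and 12868 in p53null tumors, a difference of -1.44 (SE 0.29, adjusted p = 9.27e-05, limma). Gpc1, a glypican, had medians of 1737 and 4741, a difference of -1.72 (SE 0.40, adjusted p = 6.39e-04, limma). Fgfbp1, which releases ligands from the matrix, had medians of 20.6 and 82.0, a difference of -2.07 (SE 0.74, adjusted p = 0.0227, limma). That call was lost without p53null-10151 (-1.60, adjusted p = 0.0666) or without p53null-5329 (-1.80, adjusted p = 0.0519). Of 13 heparan sulfate enzymes, Ext2 (-0.43) and Extl3 (-0.27) fell and Ndst1 (0.77) rose, beside 15.3% of all genes tested called lower and 24.3% called higher. The call of Extl3 (adjusted p = 0.0487, limma) was lost in 27 of 41 fits that left out a tumor, with the largest p, 0.130, without p53null-T11.

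Of 14 docking proteins and effectors, 7 rose and 0 fell, with a median of 0.47 against 0.10 over all genes tested, of which 24.3% were called higher and 15.3% lower. Cbl, a ubiquitin ligase of activated receptors, rose by 0.88 (SE 0.15, adjusted p = 7.59e-06), Plcg1, a phospholipase that docks on the receptor, by 0.71 (SE 0.20, adjusted p = 0.00462) and the adaptor Crkl by 0.69 (SE 0.15, adjusted p = 3.70e-04), all in limma. Frs2, the main docking protein of these receptors, was not called (1.23, SE 0.58, adjusted p = 0.0901, limma). It was singled out after its values were seen: it was at 60142 in PLK2null-7748, 35009 in PLK2null-1967, 25537 in PLK2null-1971 and 13674 in p53null-2224L, against a median of 1382 in PLK2null and 819 in p53null tumors. The 3 tumors with the highest Fgfr1 came next in order, with Frs2 at 11788 in PLK2null-7747, 11033 in PLK2null-1964 and 10516 in PLK2null-1963.

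Of 17 feedback inhibitors and target genes, 5 rose and 0 fell, beside 24.3% of all genes tested called higher and 15.3% lower. The share called higher was near that of all genes. Their median was 0.41, against 0.10 over all genes. Spred3, an inhibitor of Ras signaling, had medians of 709 in PLK2null and 139 in p53null tumors, a difference of 2.36 (SE 0.32, adjusted p = 1.24e-07, limma). All PLK2null tumors were at 306 or more and 12 of 13 p53null tumors at 280 or less, the exception being p53null-T11 at 1593. Dusp4, a MAPK phosphatase, rose by 1.03 (SE 0.38, adjusted p = 0.0271, limma), a call lost without p53null-10151 (0.93, adjusted p = 0.0545), p53null-10152 (0.94, 0.0524) or p53null-5317 (0.89, 0.0624), and with rescaling by the median ratio (0.92, 0.0558). Etv4, an Ets factor, rose by 0.87 (SE 0.28, adjusted p = 0.0107, limma). With PLK2null tumors of 19xx numbers left out, neither Etv4 (0.34, adjusted p = 0.565, limma) nor Dusp4 (0.13, adjusted p = 0.876) was called. Dusp6, Spry1 and Spry2 did not pass, at 0.33, 0.40 and 0.37 (adjusted p = 0.271, 0.0709 and 0.0669, limma). With Fgfr1 over the 41 tumors, Etv5 had r = 0.58, Etv4 0.34, Dusp6 0.06 and Spry4 -0.02. Within PLK2null and p53null tumors, Etv5 had 0.61 and 0.46, Etv4 0.26 and 0.39 and Dusp6 0.07 and -0.11. Spry4 had opposite signs, -0.47 and 0.36. With PLK2null tumors of 19xx numbers left out, 1 of the 17 was called. That run held fewer tumors and its share over all genes is not set beside it, so this fall is not read as a result about the list.

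The splicing regulators that set the epithelial form of Fgfr2 were not called. Esrp1 was at a median of 3698 in PLK2null and 4151 in p53null tumors (-0.94, SE 1.06, adjusted p = 0.510, limma). Of the 4 genes of that list, 0 passed, beside 39.5% of all genes tested. Among 11 genes tested around Fgf3, with Fgf4 and Fgf15 as above, Ppfia1 (0.55, SE 0.14, adjusted p = 0.00128, limma) was called higher, beside 24.3% of all genes tested.

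**Figure D5:**
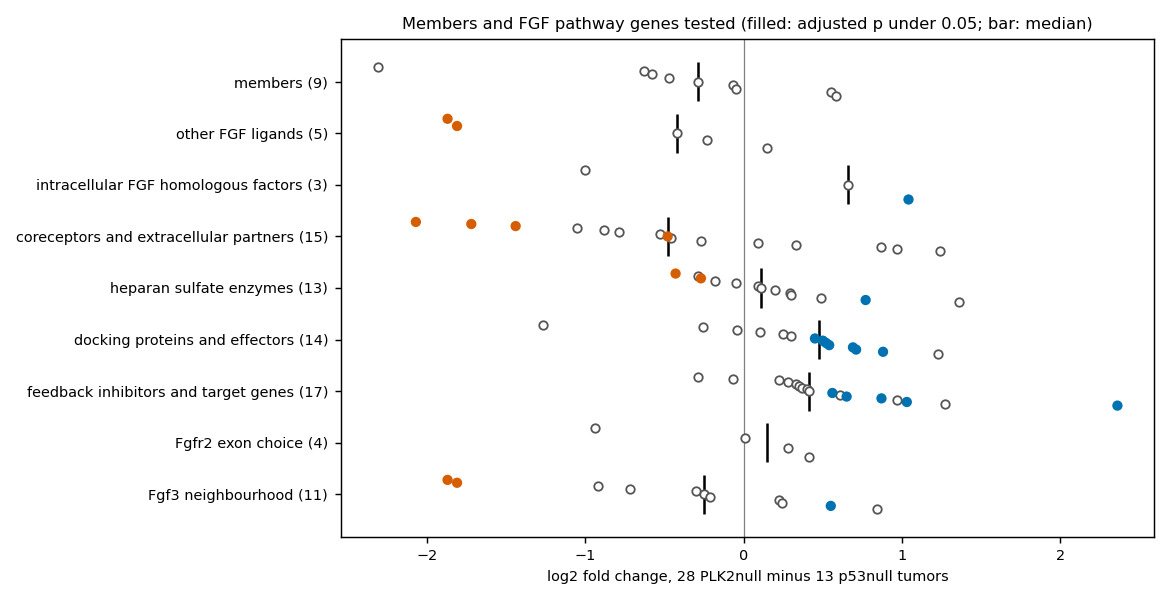
Log2 fold change (28 PLK2null minus 13 p53null tumors) of each tested gene among the 10 described and in each list, with the number tested in parentheses. Filled points passed an adjusted p of 0.05, open points did not, and bars are medians. None of the 9 tested receptor and ligand genes is filled. The 7 of 14 docking proteins and 5 of 17 feedback genes that passed are above 0. The 4 of 15 coreceptors that passed are below 0. Over all genes tested, 24.3% passed above 0 and 15.3% below 0.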

How the data were processed

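Total RNA of 41 mouse mammary tumors was sequenced as mRNA libraries from both ends. Per the labels and the submitters' processing notes, the authors aligned reads to mm10 with STAR 2.7.6a, quantified genes with Salmon 1.4.0 and used Picard 2.22.4 and SAMtools. The gene annotation they used is not given in the sources used here. What the authors deposited is a signal on a linear scale, Salmon estimated counts divided so that the 75th percentile of each tumor (zeros left out) is 1000. Columns were matched to tumors by name.

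The value of a single read in a tumor was taken as its most frequent nonzero value. Between 77.9 and 80.5% of nonzero values lay within 0.1 of a whole number of reads, too few to recover reads, so no count model was used. Genotype groups came from the labels. Genes with a mean of at least 10 entered limma 3.58.1 (R 4.3.3) as log2(value + 1), and p-values were adjusted by Benjamini-Hochberg over all genes with a threshold of 0.05. That scale understates changes of low genes. Intervals are 95% limma intervals. The tests were also run on simulated data with independent tumors. Those data held no related tumors and no batch, so they cannot check the tests for either. Single genes were also tested by permutation with 100000 resamples. Other steps used Python 3.11.15, numpy 2.4.6, pandas 2.3.3 and matplotlib 3.10.9. Promoter sequences and positions are from RefSeq (GRCm38.p6) and exon lengths from GENCODE vM21, in which 95.0% of symbols matched.

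The genes, lists and rules were chosen with earlier results of these data known. Named genes were the 10 receptors and ligands, at most 3 called genes in each direction of each pathway list, the 3 genes most correlated with each tested gene (no predicted genes), and protein-coding neighbours within 1 Mb. A gene that the rule on correlation names is not reported here. Alternatives were other pseudocounts, filters and scalings, a limma trend and fewer tumors.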

Additional observations from a re-analysis of the deposited data

How the results depend on the processing

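The count of genes called was 6802 of 17208 and moved by less than 1.5 times in every alternative run except with PLK2null tumors of 77xx numbers alone (7 against 13 tumors), where 2942 of 17050 were called. Leaving out each tumor in turn gave 6346 to 7074. Rescaling by the median ratio moved the split from 4175 higher and 2627 lower to 3381 and 3489 (61.4% to 49.2% higher) and the median of all genes from 0.10 to -0.02. Quantile normalization gave 3488 higher and 3263 lower. The called pathway genes named here kept their direction under both scalings. Of the receptors and ligands, 1 was called without PLK2null-732, PLK2null-733, PLK2null-743 and p53null-T11 (Fgfr2), 0 to 1 on leaving out each tumor, and 2 had an unadjusted permutation p under 0.05 (Fgfr2 and Fgf18). The pathway lists held 23 called genes (Fgf4, which passed the filter through p53null-2153L alone, included), against 8 with 77xx numbers alone and 12 with 19xx numbers left out. On leaving out each tumor, 17 to 28 of the 79 to 80 list genes tested were called. Over all genes tested, 39.5% were called in the main run, and 2942 of 17050 with 77xx numbers alone. Both smaller runs held fewer tumors, so these falls are not read as results about the lists. Named calls were lost with a pseudocount of 10 (Fgf4), with 77xx numbers alone (Fgf4, Fgf11, Fgfbp1, Gpc1, Plcg1, Dusp4, Etv4) and with 19xx numbers left out (Fgf4, Fgfbp1, Ndst1, Dusp4, Etv4, Ppfia1), beside Fgf15 and Extl3. Sdc4, Ext2, Cbl, Crkl and Spred3 were called in every alternative run. Differences that were not called changed sign for Fgfr4 with a pseudocount of 10 (0.09) or 77xx numbers alone (0.22), for Fgf1 with 77xx numbers alone (0.12) and for Fgf3 with a pseudocount of 0.1 (0.20) or 19xx numbers left out (0.26). On leaving out each tumor they ran from -0.28 to 0.31 for Fgfr4 and from -0.29 to 0.10 for Fgf3, which had no fit without p53null-2153L. Apart from fewer tumors, the cause was not tested. No paired analysis was possible because the labels do not tie tumors of the 2 genotypes to each other. Depth limits Fgf3, Fgf10 and Fgf18, which lay near 3 reads in many tumors.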
